A study of Bos taurus with 10 samples.

Results

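The transcripts described here belong to 7 genes that move salt and water into the cavity of the blastocyst: the sodium pump beta subunits ATP1B1 and ATP1B3, the water channels AQP3, AQP8, AQP9 and AQP11, and the sodium-proton exchanger SLC9A3. They were taken as every non-control probe of the array whose gene name in the scanner files is 1 of the 7, which gave 7 genes of 17491 named on the array and 14 probes of 43653. The embryos were collected by flushing the uterus of superovulated cows 7 days after the first of the inseminations at 108 and 120 h of the hormone treatment. At 48 h of that treatment the cows had received an intravenous infusion of DMSO vehicle (n = 2 samples), or of senktide for 2 h at 30 nmol/min (n = 4) or 300 nmol/min (n = 4). Senktide is a peptide that activates the neurokinin-3 receptor, and it was the cows, not the embryos, that were infused. The labels do not say whether a sample was 1 embryo or a pool, nor from which cow it came, so the p-values below measure only the spread between these samples.

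As a blastocyst forms, its outer cell layer, the trophectoderm, pumps sodium out across its inner face with the Na+/K+-ATPase, and water follows through aquaporins while tight junctions hold the fluid in. The pump is made of a catalytic alpha and a glycosylated beta subunit; the beta subunit is needed for the alpha subunit to fold and reach the membrane. Sodium enters the cells through the outer face, in part through exchangers of the SLC9 family. In mouse embryos AQP9 has been placed at the outer face and AQP3 and AQP8 at the inner, and AQP11 is known mainly as a channel of intracellular membranes.

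Only 2 of the 7 genes, ATP1B3 and AQP3, were measured well above the background of these arrays. A probe was called well above background where Agilent's flag was set for its spot, and was tested where this held on at least 2 of the 10 arrays. Of the 14 probes, 5 passed, 4 of ATP1B3 and 1 of AQP3; 4 of these were so on all 10 arrays, and 9 probes were so on none. Over the whole array 20.5% of probes passed, against 35.7% of these 14, and 74.4% were well above background on no array. ATP1B1, AQP8, AQP9, AQP11 and SLC9A3 had no probe that passed on any array. No fold change is given for them, and in whole embryos fewer cells of a type and less RNA per cell cannot be told apart for any gene named here.

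The arrays were dim and differed in brightness by slide. Between 7.17% and 9.44% of probe spots were well above background on the vehicle arrays, 8.77% to 19.6% in the group given 30 nmol/min and 10.47% to 19.6% in that given 300 nmol/min. Slides 1 and 2 carried an array from each group, at 7.17% to 13.2%, and slide 3 held the 4 senktide arrays numbered 3 and 4, at 18.3% to 19.6%, with no vehicle array. The extraction text of the labels speaks of endometrium, while titles and tissue fields name embryos. Each marker, and each gene of the lists further below, is represented by 1 probe. It is the probe well above background on most arrays and, among equals, the one with the highest mean. Of 10 trophectoderm markers 6 were well above background on all 10 arrays, among them KRT8, GATA2 and TFAP2C, and CDX2, TEAD4 and ELF5 were so on none; of the inner cell mass markers, SOX2 was so on all 10 and NANOG and LIN28A on none. For uterine epithelium, OVGP1, PAEP, LTF, TFF3 and FOXA2 were so on none of the 10 arrays and CLU on 7. Of 11 leukocyte markers with a probe, LYZ was so on all 10 arrays and 7 on none, and of 9 stroma and blood markers 5 were so on none.

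The probes of the undetected genes are given first, because they show what the array could have caught. ATP1B1, the beta subunit known from the basolateral pump of most epithelia, had 2 probes on the plus strand of chromosome 16 of the array's build, Btau_3.1. A_73_P043016 is placed at chr16:34200297-34208258, a span of 7962 bases for a 60-base probe, so its bases lie in more than 1 block of the genome. A_73_P154497 lies inside that span, at chr16:34205700-34206889, a span of 1190 bases. The last 30 bases of A_73_P043016 are shown for the AATAAA in capitals, the commonest polyadenylation signal, which was searched for on the printed strand of every probe and stood in 9.35% of them and in 1 of these 14. A_73_P154497 is shown whole:
ATP1B1 A_73_P043016: cagtcaggttaaaacaatggacAATAAAag
ATP1B1 A_73_P154497: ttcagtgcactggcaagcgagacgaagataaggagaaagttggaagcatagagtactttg

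ATP1B1 A_73_P043016 was the nearest of the undetected probes to measurement. Its processed signal, a background-subtracted brightness in arbitrary units, was 5.98 and 4.30 on the vehicle arrays, 3.83, 3.49, 6.58 and 4.57 at 30 nmol/min and, in the group given 300 nmol/min, 5.76, 3.103, 7.49 and 15.02. The signal of 15.02 was 135% of the lowest signal called well above background on that array, yet the flag was not set for it. Agilent's less strict flag, positive and significant against the local background, was set on 9 of 10 arrays for A_73_P043016 and on 1 for A_73_P154497. That flag was set for 45.2% to 58.3% of all probe spots per array and for 0.654% to 4.58% of the negative control spots, against 0% to 0.654% of negative controls for the stricter one. A_73_P154497 reached 94.8% of its array's lowest measured signal at most, on array 4 at 30 nmol/min.

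The undetected water channels and the exchanger stayed below the lowest measured signal on every array. AQP8, a channel for water and ammonia, had 2 probes 66647 bases apart on opposite strands of chromosome 25, A_73_P058456 at chr25:24075892-24075951 on the minus strand and A_73_102705 at chr25:24142599-24142658 on the plus strand, so the build does not place them on 1 transcript. AQP9, a channel that also passes glycerol, had A_73_P080031 (chr10:52645364-52645423) and A_73_113890 (chr10:52644540-52644599), both on the minus strand. AQP11 had A_73_P039286 on the minus strand (chr29:19333416-19333475), and SLC9A3, the exchanger also called NHE3, had A_73_110494 on the plus strand (chr20:75669107-75669424, a span of 318 bases). A_73_P058456 and A_73_110494 are shown as examples of undetected sites of a channel and of the exchanger:
AQP8 A_73_P058456: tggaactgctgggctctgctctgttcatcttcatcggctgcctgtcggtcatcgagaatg
SLC9A3 A_73_110494: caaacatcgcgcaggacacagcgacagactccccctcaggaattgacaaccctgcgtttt

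AQP8 A_73_P058456 never exceeded 25.2% of its array's lowest measured signal and was positive and significant on 0 arrays, while A_73_102705 reached 75.1% and was so on 5. The AQP9 probes reached 36.7% and 34.8% and were positive and significant on 2 and 3 arrays. AQP11 had processed signals of 3.11 and 2.83 on the vehicle arrays, 3.25, 3.09, 9.49 and 7.77 at 30 nmol/min and, in the group given 300 nmol/min, 3.54, 2.47, 7.89 and 10.47. The 4 AQP11 signals above 7 were those of slide 3, the only arrays where it was positive and significant, and the groups overlapped. SLC9A3 reached 68.7% and was positive and significant on 7 arrays, with signals of 3.36 and 5.72 on the vehicle arrays, 6.62, 8.70, 3.76 and 2.601 at 30 nmol/min and, in the group given 300 nmol/min, 6.47, 5.996, 5.93 and 3.24, which overlapped in all groups. At this brightness a difference between groups was not detectable for these 5 genes.

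**Figure D1:**
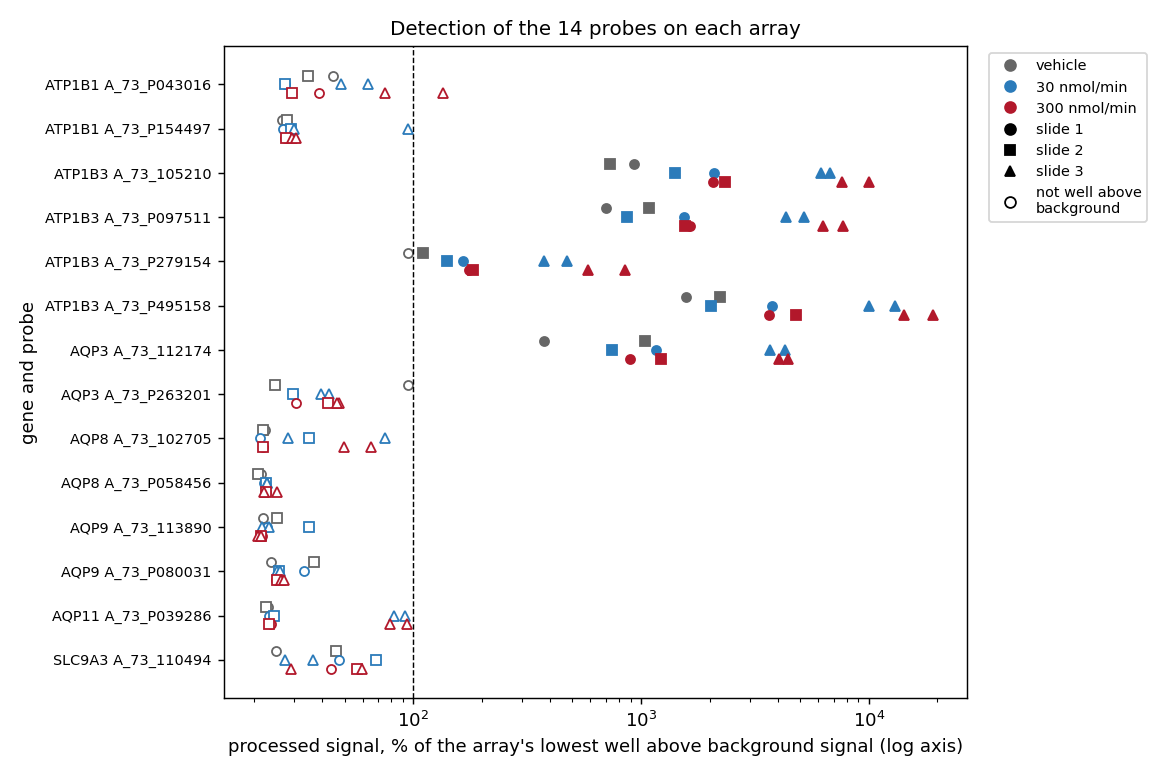
Processed signal of the 14 probes on each of the 10 arrays, as a percent of that array's lowest signal called well above background (horizontal log axis, dashed line at 100); colour gives the group, shape the slide, and open symbols were not well above background. The ATP1B3 probes and 1 AQP3 probe lie right of the line except ATP1B3 A_73_P279154 on vehicle array 1, and of the other 9 probes only ATP1B1 A_73_P043016 crosses it, at 135% on array 4 at 300 nmol/min.

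ATP1B3, the beta-3 subunit of the pump, had 4 probes of 1 transcript (NM_001035393) on the minus strand of chromosome 1. A_73_P279154 spans chr1:129202358-129206505, 4148 bases for 60 probe bases. The other 3 lie toward the 3′ end of the gene: A_73_P495158 at chr1:129199948-129200007, A_73_P097511 at chr1:129199921-129199980 and A_73_105210 at chr1:129199786-129199845. A_73_P495158 and A_73_P097511 share 33 bases of genome and are not independent. Over that overlap their sequences differ at 2 bases, G4A and T16G, counted from 1 at the 5′ end of the overlap with A_73_P495158's base first; its first 30 bases are shown with those bases in capitals, followed by A_73_P279154 whole and the last 30 bases of A_73_105210:
ATP1B3 A_73_P495158: ccaGtttttatgtggTttaattgccaagtg
ATP1B3 A_73_P097511: ccaAtttttatgtggGttaattgccaagtg
ATP1B3 A_73_P279154: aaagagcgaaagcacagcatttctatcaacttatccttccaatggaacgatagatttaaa
ATP1B3 A_73_105210: aaattcagtgtgtggaaaagttctgtatct

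At 300 nmol/min no ATP1B3 probe passed the threshold against vehicle, but 3 of its 4 probes had all 4 senktide arrays above both vehicle arrays. Values are log2 processed signals from which the array's own scale was subtracted, the 75th percentile over the 2491 probes that were well above background throughout. A_73_105210 stood at 0.78, 0.85, 1.24 and 0.82 at 300 nmol/min, against 0.67 and −0.43 in vehicle. The vehicle arrays were 1 near the senktide arrays and 1 far below them. The fitted difference was 0.80 (SE 0.29, limma adjusted p = 0.293, unadjusted p = 0.0208); it was 0.25 without vehicle replicate 2 and 1.35 without vehicle replicate 1.

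A_73_P495158 stood at 1.60, 1.88, 2.18 and 1.71 at 300 nmol/min, against 1.42 and 1.17 in vehicle. The groups did not overlap, and the fitted difference was 0.55 (SE 0.21, limma adjusted p = 0.317, unadjusted p = 0.0288). A_73_P097511 stood at 0.44, 0.25, 0.86 and 0.54 at 300 nmol/min, against 0.25 and 0.13 in vehicle. Its groups were separated by less than the second decimal, array 2 at 300 nmol/min at 0.2543 and vehicle array 1 at 0.2539, and its difference was 0.33 (SE 0.21, limma adjusted p = 0.456). A_73_P279154, which was well above background on 1 of the 2 vehicle arrays, stood at −2.77, −2.84, −2.31 and −2.89 at 300 nmol/min, against −2.63 and −3.16 in vehicle, with overlap (difference 0.19, SE 0.29, limma adjusted p = 0.774).

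Non-overlap of this kind was common with 4 arrays against 2. All arrays at 300 nmol/min lay above both vehicle arrays for 9.26% of the 8935 tested probes and below both for 16.3%. By limma 0.0112% of tested probes passed in this comparison, 1 probe, of REXO2, named after its values were seen, and 1236 had an unadjusted p under 0.05. The higher ones among those made up 5.89% of tested probes, and 2 of the 5 probes described here, A_73_105210 and A_73_P495158, were of that kind. A larger fitted difference than theirs was found for 5.35% and 10.8% of tested probes. All 5 fitted differences were above 0, against 40.7% of tested probes, whose median was −0.11, and 4 of the 5 are of 1 gene.

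Set against same-numbered vehicle arrays on the same slide, the 300 nmol/min arrays were higher for these 3 ATP1B3 probes on both slides. A_73_105210 was higher by 0.11 on slide 1 and 1.28 on slide 2, and A_73_P495158 by 0.18 and 0.71. A_73_P097511 was higher by 0.19 and 0.12, while A_73_P279154 stood at −0.14 and 0.32. Both differences were above 0 for 20.9% of tested probes. The 2 slides thus differed in size, and slide 2 gave the larger value for 3 of the 4 probes.

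Of the 6 tested markers of the trophectoderm, where the pump works, 4 stood higher at 300 nmol/min than in vehicle and 2 lower, none past the threshold. KRT8 differed by 0.34 (SE 0.25), GATA2 by 0.50 (SE 0.23) and TFAP2C by 0.39 (SE 0.24), with limma adjusted p of 0.518, 0.374 and 0.457. KRT18 differed by 0.09 (SE 0.34), GATA3 by −0.08 (SE 0.25) and KRT19 by −0.15 (SE 0.45). The median of the 6 was 0.22 beside −0.11 over all tested probes, of which 40.7% were above 0. With the 75th percentile over every probe as the scale all 6 were above 0. So were 92.2% of tested probes, whose median was then 1.06. The list's median lay 0.33 above that of all tested probes under either scale, and 0.06 above it with normexp and quantile normalization. The summed signal of the list, relative to the array scale, ran from 25.4 to 42.2 at 300 nmol/min, against 25.1 to 34.1 in vehicle, with overlap. KRT8 and KRT18, at means of 4.39 and 3.54 at 300 nmol/min, were its brightest members. No marker of stroma and blood or of uterine epithelium was well above background on a vehicle array. On arrays at 300 nmol/min 1 to 4 and 0 to 3 of them were so. Of all probe spots 10.47% to 19.6% were so there, against 7.17% to 9.44% on vehicle arrays. Their vehicle values are thus only bounds. The fitted differences, with 1 of 4 tested (median −0.86) and 0 of 2 tested (median −0.46) above 0, give no direction for them. With normexp and quantile normalization these medians lay 0.02 below and 0.02 above that of all tested probes. Of 3 tested leukocyte markers 2 differed from vehicle by more than 0 (median 0.15), and of 3 tested inner cell mass markers 1 did (median −0.35). Among them only LYZ (−0.48) and SOX2 (−0.35) were well above background on a vehicle array, so the others' vehicle values are bounds too. With normexp and quantile normalization the leukocyte median lay 0.17 above that of all tested probes, and the inner cell mass median 0.01 below it. The part of any of these lists in the ATP1B3 differences was not tested.

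The array scale moved the size of these differences but not their sign. With the 75th percentile over every probe of the array as its scale, the differences were 1.97 for A_73_105210, 1.72 for A_73_P495158, 1.51 for A_73_P097511 and 1.36 for A_73_P279154, while the median over all tested probes moved to 1.06. Relative to that median they were 0.91, 0.66, 0.44 and 0.30, as in the scale used here. With normexp background correction and quantile normalization they were 0.79, 0.02, 0.11 and 0.17 above the median, so that A_73_P495158 stood at the median of all probes.

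**Figure D2:**
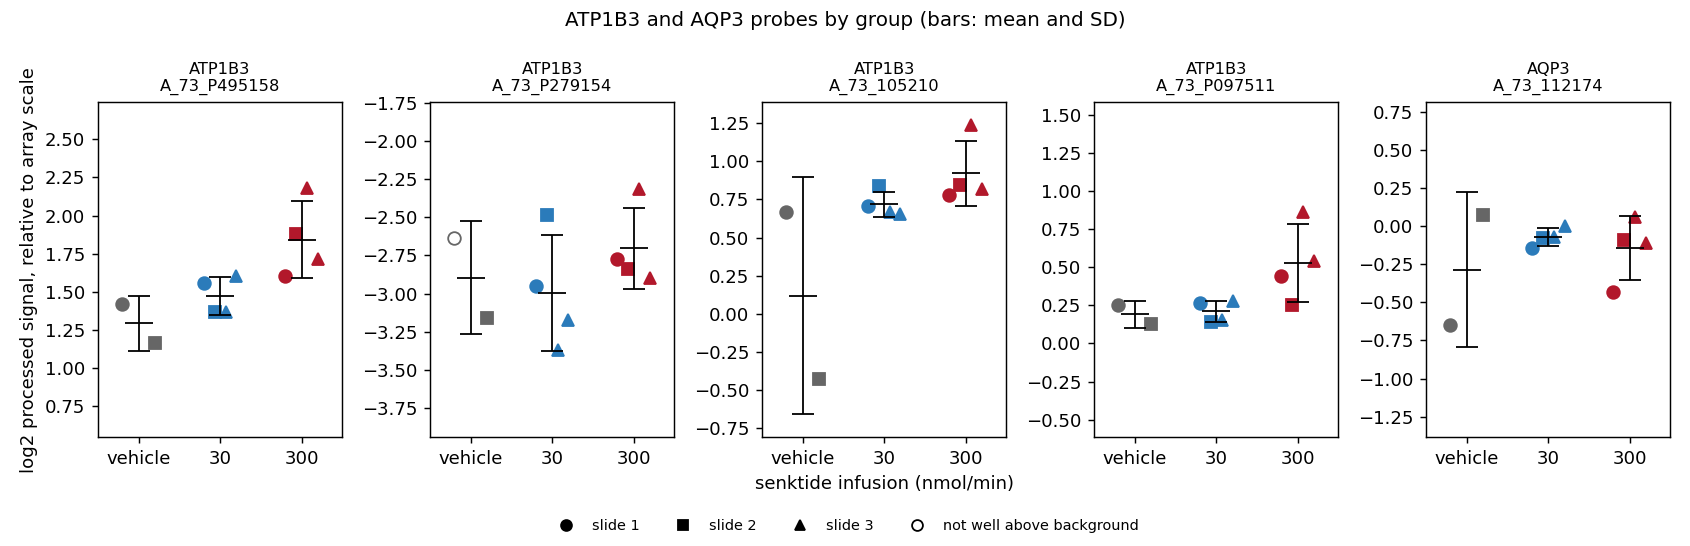
Log2 processed signal relative to each array's scale (vertical axis, each panel 2.2 units tall) for the 5 tested probes in vehicle, 30 and 300 nmol/min senktide samples (horizontal axis); points are arrays, shapes are slides, bars are mean and SD (n = 2, 4 and 4). For ATP1B3 A_73_105210 vehicle array 2 lies at −0.43, below the 9 others, and for AQP3 vehicle array 1 lies lowest at −0.65.

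At 30 nmol/min the ATP1B3 probes overlapped with vehicle in every case. A_73_105210 stood at 0.71, 0.84, 0.67 and 0.65 at 30 nmol/min, against 0.67 and −0.43 in vehicle, a difference of 0.60 (SE 0.29, limma adjusted p = 0.468) that was 0.05 without vehicle replicate 2. A_73_P495158 stood at 1.56, 1.37, 1.37 and 1.60 at 30 nmol/min, against 1.42 and 1.17 in vehicle, a difference of 0.18 (SE 0.21, limma adjusted p = 0.741) that turned to −0.04 with normexp and quantile normalization. A_73_P097511 stood at 0.26, 0.14, 0.16 and 0.28 at 30 nmol/min, against 0.25 and 0.13 in vehicle, a difference of 0.02 (SE 0.21, limma adjusted p = 0.974) whose sign turned under several settings. The last probe, A_73_P279154, stood at −2.95, −2.49, −3.37 and −3.18 at 30 nmol/min (difference −0.10, SE 0.29, limma adjusted p = 0.908). That sign turned too when arrays were scaled to all probes. By their 75th percentile it was 0.96, beside a median of 0.95 over all tested probes. By limma 0% of tested probes passed here, with 1006 at an unadjusted p under 0.05; the higher ones were 4.94% of tested probes and 0 of these 5. With no overlap, 7.63% lay above and 11.9% below both vehicle arrays with no overlap. The median of all tested probes stood at −0.11, and 40.0% of the differences were above 0.

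Between the doses, ATP1B3 was higher at 300 than at 30 nmol/min in all 4 same-numbered pairs for 3 of its probes, without passing the threshold. A_73_P495158 was higher by 0.04, 0.51, 0.81 and 0.11 in pairs 1 to 4, with a fitted difference of 0.37 (SE 0.18, unadjusted p = 0.0626). A_73_P097511 was higher by 0.18, 0.11, 0.71 and 0.26 (fitted 0.32, SE 0.17, unadjusted p = 0.0902), and A_73_105210 by 0.07, 0.01, 0.57 and 0.17 (fitted 0.20, SE 0.24). All 4 pairs were above 0 for 8.18% of tested probes, and 2 of these 3 probes overlap in sequence. The arrays of each pair also shared a slide, and a pairing by number beyond that was not established. Pair 3 gave the largest value for each, and array 3 at 300 nmol/min was the highest of the 10 for all 4 probes. A_73_P279154 was higher in 3 of 4 pairs, between −0.35 and 1.05 (fitted 0.29, SE 0.24).

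The limma adjusted p was 0.999 for each of these probes between the doses. Of all tested probes 0% passed, with 268 at an unadjusted p under 0.05, of which the higher ones were 1.69% of tested probes and 0 of these 5, and 1 probe without a gene name passed with the replicate number as a block, under which the ATP1B3 probes had limma adjusted p = 0.997. The groups did not overlap upward for 1.56% and downward for 1.14% of tested probes, and for none of these. Array 3 at 300 nmol/min carried part of each value: without it the differences were 0.26 for A_73_P495158, 0.20 for A_73_P097511, 0.098 for A_73_105210 and 0.16 for A_73_P279154, the lowest that leaving out 1 array gave for each. The comparisons with vehicle share their 2 vehicle arrays, and those of the 300 nmol/min group share its 4, so the 3 comparisons are not separate evidence.

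**Figure D3:**
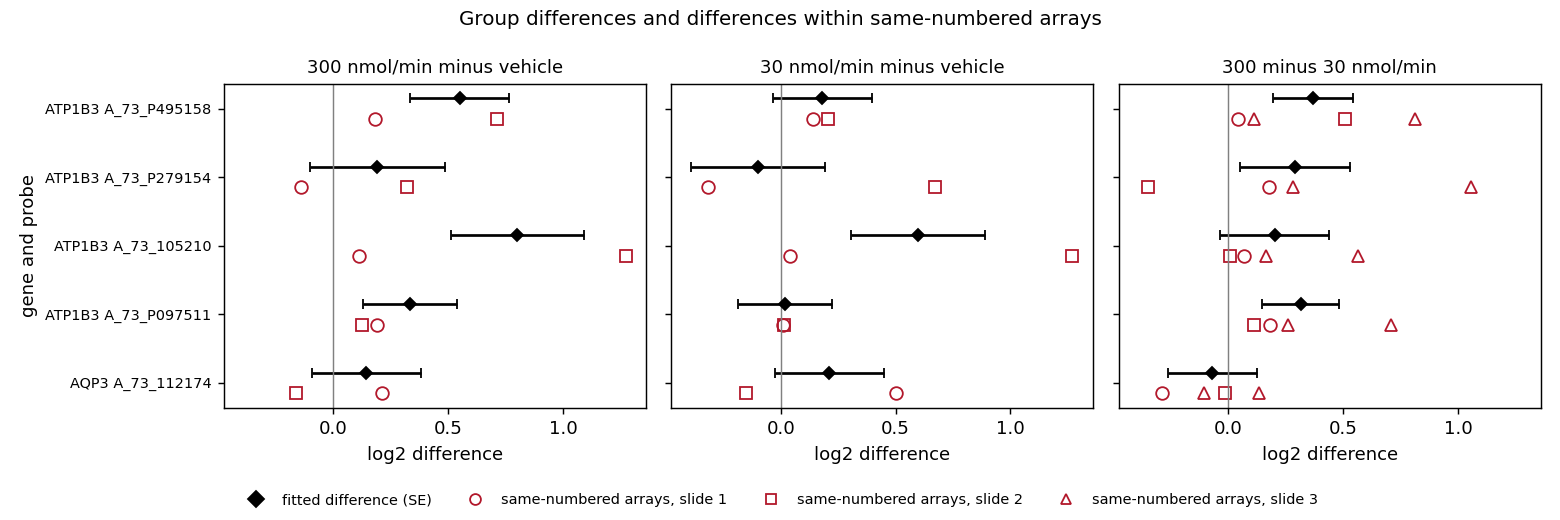
Log2 differences (horizontal axis) of the 5 tested probes in the 3 comparisons: black diamonds are fitted differences with SE, red symbols the differences between same-numbered arrays, with shape by slide. The ATP1B3 probes other than A_73_P279154 have all 4 pairs above 0 at 300 minus 30 nmol/min, from 0.01 to 0.81, and AQP3 lies on both sides of 0 in every panel.

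AQP3, an aquaglyceroporin of epithelia that passes water and glycerol, had 2 probes on the minus strand of chromosome 8 (NM_001079794), and they disagreed. A_73_112174 (chr8:79337542-79337601) was well above background on all 10 arrays. A_73_P263201 (chr8:79339104-79339502, a span of 399 bases), 1502 bases away, was so on none, and reached 95.0% of the lowest measured signal of vehicle array 1, the only array where it was positive and significant. Such disagreement was usual: of 1334 named genes with at least 2 probes and 1 of them well above background on all 10 arrays, 872 (65.4%) had another probe that was so on none. The last 30 bases of A_73_112174 and the whole of A_73_P263201 are shown as the detected and undetected site of 1 gene:
AQP3 A_73_112174: ctgccctcctttaatcctccactcaacaca
AQP3 A_73_P263201: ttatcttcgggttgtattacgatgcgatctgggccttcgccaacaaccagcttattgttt

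AQP3 did not differ past the threshold in any comparison. A_73_112174 stood at −0.43, −0.09, 0.06 and −0.11 at 300 nmol/min, against −0.65 and 0.07 in vehicle, a difference of 0.14 (SE 0.24, limma adjusted p = 0.796) that turned to −0.09 with normexp and quantile normalization and to −0.22 without vehicle replicate 1. At 30 nmol/min it stood at −0.14, −0.08, −0.07 and −0.00, a difference from vehicle of 0.21 (SE 0.24, limma adjusted p = 0.726) that was −0.15 without vehicle replicate 1. The 2 vehicle values thus enclosed those of all 8 senktide arrays. Between same-numbered arrays, the 300 nmol/min array was above its vehicle array on slide 1 (0.21) and below it on slide 2 (−0.16). Between the doses the fitted difference was −0.07 (SE 0.19, limma adjusted p = 0.999), with 1 of 4 pairs above 0. It turned to 0.05 with the 75th percentile over every probe as the scale, beside a median of 0.10 over all tested probes.

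The 30 nmol/min arrays were the closest together for 4 of the 5 probes. The SD of A_73_105210 was 0.78 in vehicle (n = 2), 0.08 at 30 nmol/min (n = 4) and 0.21 at 300 nmol/min (n = 4). The SD of AQP3 A_73_112174 was 0.51 in vehicle, 0.06 at 30 nmol/min and 0.21 at 300 nmol/min. The exception was A_73_P279154, at 0.37 in vehicle, 0.38 at 30 nmol/min and 0.27 at 300 nmol/min. With 2 vehicle arrays these SDs are themselves imprecise, and their differences were not tested.

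The 3 ATP1B3 probes measured on all 10 arrays were more like each other across arrays than like AQP3. A_73_P279154 was not compared. Over the 10 arrays, Pearson's r of the log2 values was 0.84 between A_73_P495158 and A_73_P097511, which overlap, 0.75 between A_73_P495158 and A_73_105210, and 0.60 between A_73_P097511 and A_73_105210. With AQP3 A_73_112174 these 3 had r of 0.17, 0.09 and −0.15. Among the 2167 named probes measured on every array, A_73_P495158 was most like RPS4X (r = 0.94), SLC2A3 (0.91) and RPS4Y1 (0.90), where RPS4X and RPS4Y1 are near-identical ribosomal protein genes whose signals may not be separable and SLC2A3 is a glucose transporter. A_73_105210 was most like TXNDC17 (r = 0.93), EIF3E (0.91) and RPL17 (0.90), A_73_P097511 like OAT (0.93), TM9SF2 (0.92) and SF3B1 (0.90), and AQP3 A_73_112174 like MRFAP1L1 (0.95), HMGB1 (0.87) and SRRT (0.86). The lists of the 3 ATP1B3 probes shared no gene. These values describe 10 arrays that share slides and brightness, and carry no p.

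The rest of the pump and its setting gave no call either. Of the other sodium pump genes and their relatives, 2 of 14 with a probe were tested and 11 were well above background on no array, among them the beta subunits ATP1B2 and ATP1B4. FXYD6, of the small FXYD proteins that tune the pump, was well above background on 7 arrays, 1 of them vehicle. Its difference from vehicle at 30 nmol/min was −0.89 (SE 0.30, limma adjusted p = 0.345). That was 0.17 with the 75th percentile over every probe as the scale, beside a median of 0.95 over all tested probes. Relative to the median it was −0.78 under either scale and −0.26 with normexp and quantile normalization.

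Of the other aquaporins, 2 of 7 with a probe were tested, none on all 10 arrays. AQP6 was measured on both vehicle arrays and on 1 of 4 at each dose, and did not pass the threshold in any comparison, and AQP4, the water channel best known from brain, on 2 of 4 at each dose and on no vehicle array.

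Genes of sodium and chloride entry had 7 of 20 tested. EZR, the ezrin that ties SLC9A3 to the cytoskeleton, was measured on all 10 arrays, at −0.29 ± 0.15 at 300 nmol/min (SD, n = 4), against −0.89 ± 0.23 in vehicle (n = 2), a difference of 0.60 (SE 0.20, limma adjusted p = 0.274, unadjusted p = 0.0154). Of all tested probes 5.89% were higher in that comparison at a limma unadjusted p under 0.05. NHERF1, the scaffold that binds both ezrin and SLC9A3, named SLC9A3R1 in the files, was measured on all 10 arrays as well, with a difference of 0.28 (SE 0.29, limma adjusted p = 0.654). CLCN2, a chloride channel, was so on 5 arrays, none of them vehicle, so its vehicle values are only bounds and no fold is given.

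Among regulators of the pump and channels, 3 of 13 were tested, none on all 10 arrays: WNK1 and NEDD4L on 9 arrays, 1 of them vehicle, and the kinase SGK1 on 7, none of them vehicle. At 300 nmol/min WNK1, a kinase that acts on ion cotransporters, differed from vehicle by −0.19 (SE 0.25, limma adjusted p = 0.733), and NEDD4L, the ubiquitin ligase of the epithelial sodium channel, by −0.06 (SE 0.27, limma adjusted p = 0.933). Both signs turned with the 75th percentile over every probe as the scale, to 0.98 and 1.11, and with normexp and quantile normalization, to 0.12 and 0.32. The medians over all tested probes were then 1.06 and 0.09. Relative to the median WNK1 was −0.08 and NEDD4L 0.05 under either percentile scale, and 0.03 and 0.23 with normexp and quantile normalization. Of 20 tight junction genes, which seal the cavity, 10 were tested, and F11R and TJP3 were among those well above background on all 10 arrays. At 300 nmol/min F11R, a junctional adhesion molecule, differed from vehicle by −0.01 (SE 0.22, limma adjusted p = 0.991) and TJP3 by −0.01 (SE 0.23, limma adjusted p = 0.993); both turned to 1.16 and 1.17 with the 75th percentile over every probe as the scale, beside a median of 1.06 over all tested probes.

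Over the 5 lists, 24 of 74 genes with a probe were tested and 0 passed by limma in any of the 3 comparisons. A limma unadjusted p under 0.05 was found for 1 at 300 nmol/min against vehicle, 2 at 30 nmol/min against vehicle and 1 between the doses. Of all 8935 tested probes, 1236, 1006 and 268 had such a p in these comparisons. The medians at 300 nmol/min against vehicle were 0.01 for the sodium and chloride entry genes (4 of 7 above 0) and −0.06 for the tight junction genes (2 of 10 above 0), beside −0.11 over all tested probes. Those counts followed the scale of the arrays: with the 75th percentile over every probe as the scale, 6 of 7 and 10 of 10 were above 0, and the medians lay 0.12 and 0.05 above that of all tested probes under either scale.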

How the data were processed

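Per the labels, Cy3-labelled total RNA of each of the 10 samples was put on its own 1-colour Agilent bovine array. The deposited scanner files hold intensity per spot, background-subtracted and detrended per the file headers, not scaled between arrays (Agilent Feature Extraction, version 11.5.1.1 in the headers and 10.5.1.1 in the submitters' processing notes); flags for detection and outliers are codes in the same deposited files. The deposited series matrix holds log2 values; from each log2 processed signal the array's 75th percentile of all probes and then the probe's median had been subtracted, which held to 0.01 for 99.96% or more of an array's values, so its scale, centring and direction are known. Its column medians were 0.22 and 0.12 for vehicle. They were 0.04, 0.07, −0.13 and −0.31 for senktide at 30 nmol/min. At 300 nmol/min they were 0.16, −0.18, −0.28 and −0.23.

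Groups and replicate numbers came from sample titles. Outlier spots were left out, 0 probe spots were saturated, and spots of 1 probe were averaged. Because under 50% of probes were detected, arrays were scaled by the 75th percentile of the probes that were well above background throughout. The 8935 probes well above background on at least 2 arrays were fitted with limma 3.58.1 (R 4.3.3; lmFit, eBayes, 1 coefficient per group over 10 arrays) and p-values were adjusted over all of them by Benjamini-Hochberg, threshold 0.05. The number of arrays limits the precision. Every probe of the 7 genes is named. Of each list, the up to 3 genes well above background on most arrays are named, ties by p, and for trophectoderm all 6 tested markers. List values rest on 1 probe per gene. Some genes had more tested probes, such as EZR with 2 and F11R with 3 in all, and the further ones are not given. For each probe on all 10 arrays the 3 genes with the highest r are named. Some genes that this rule took from the lists are not reported here. The members and lists were chosen with earlier results of these data known. Symbols were updated through a RefSeq table (assembly ARS-UCD2.0, whose coordinates were not used); 20595 probes matched by accession and 10745 by symbol. Coordinates and probe sequences are those of the files (Btau_3.1 per the file headers).

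The 10 arrays lay on 3 slides, and scan marked the same arrays as slide. The doses were compared within the same numbers of the titles, and each such pair also shared a slide. Deviations from group means correlated at r = 0.487 to 0.574 in these 4 pairs. Differently numbered senktide pairs on slide 3 had 0.492 and 0.544, and those between slides 1 and 2 had 0.413 and 0.417. Pairs of a slide 3 array with one of slide 1 or 2 had −0.531 to −0.472. A pairing by number beyond the shared slide was thus not established. With vehicle, r ran from −0.198 to 0.179 and the numbers were not taken as pairs. Alternatives were other array scales, normexp with quantile normalization, the series matrix, other filters, a floor, blocks, fewer arrays and each array left out. The fit was tested on simulated data. Python 3.11.15, pandas 2.3.3, numpy 2.4.6 and matplotlib 3.10.9 were used.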

Additional observations from a re-analysis of the deposited data

Results flagged for a closer look

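The value of ATP1B3 A_73_105210 on array 3 at 300 nmol/min, 1.24, lay apart from the other 3 arrays of its group, with a gap that was 0.855 of the group's range. Of the 10 groups of 4 arrays examined, 1 stood out in this way, where chance gives about 0.5. Without that array the difference from vehicle was 0.70.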

How the results depend on the processing

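No probe of ATP1B3 or AQP3 passed the threshold under any alternative, and the lowest limma adjusted p was 0.0545 (A_73_105210, 300 nmol/min against vehicle). Of 312 member differences under alternatives, 290 kept their sign and 22 turned. With normexp and quantile normalization AQP3 was −0.0855 at 300 nmol/min against vehicle, and at 30 nmol/min against vehicle A_73_P495158 was −0.0380, A_73_P097511 −0.0467 and A_73_P279154 0.126. At 30 nmol/min A_73_P279154 was also 0.96 by the 75th percentile of all probes and by the series matrix, 1.22 by the median, and 0.178 on arrays numbered 1 and 2, and A_73_P097511 was −0.0729 under the slide block and under the replicate block alike. Between the doses A_73_P279154 was −0.0864 on arrays numbered 1 and 2, and AQP3 was 0.0465 by the 75th percentile, 0.0461 by the series matrix and 0.0362 by the median. By the 75th percentile, the series matrix and the median, all tested probes had medians of 0.95, 0.95 and 1.21 at 30 nmol/min against vehicle. Between the doses these were 0.10, 0.10 and 0.09. Leaving out each array in turn gave, at 300 nmol/min against vehicle, −0.0702 to 0.454 for A_73_P279154 and −0.217 to 0.503 for AQP3. At 30 nmol/min against vehicle it gave −0.361 to 0.164 for A_73_P279154, −0.0436 to 0.0806 for A_73_P097511 and −0.149 to 0.571 for AQP3. Between the doses it gave −0.136 to 0.0291 for AQP3.

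Over all tested probes, the count at 300 nmol/min against vehicle was 1. It was 107 with normexp and quantile normalization and 0 under the other scales, the series matrix, all 3 changes of filter or floor, slide or replicate number as a block, the 2 groups alone, and arrays numbered 1 and 2. Leaving out each array gave 0 to 50, with 32 without vehicle replicate 1 and 50 without vehicle replicate 2. At 30 nmol/min against vehicle it was 0, then 36 with normexp and quantile normalization and 0 to 36 with arrays left out (34 and 36 without vehicle replicates 1 and 2). Between the doses it was 0, then 1 with normexp and quantile normalization and 1 with the replicate block, 0 of them of these genes. The replicate block thus removed the 1 call at 300 nmol/min against vehicle and added 1 between the doses. A vehicle array left alone was assumed to vary like the other groups. The causes were not tested. Slide 3 held no vehicle array, so against vehicle the slide and the group can be told apart only on slides 1 and 2.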
